A study of Mus musculus with 384 samples.

Results

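Tumour-infiltrating CD8 T cells in which Tcf7 transcript was detected were compared with the CD8 T cells of the same plate in which it was not. The cells were chosen by their measured Tcf7 value: a cell with at least 1 FPKM of Tcf7 was Tcf7-positive, and every other kept cell was Tcf7-negative. FPKM is the number of sequenced fragments scaled to transcript length and library size. The same value of 1 FPKM marks any gene as detected, and a cell was kept if it had 1000 or more such genes. The rule gave 66 Tcf7-positive and 83 Tcf7-negative CD8 cells. They come from 2 of the 4 plates of the series, each with 94 single-cell wells, of which 77 were kept in the CD8 plate labelled knockout and 72 in the wild-type CD8 plate. Since the rule used Tcf7, the Tcf7 values are given as a description.

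T cells were isolated from B16F10 tumours, a transplantable melanoma line, grown in C57BL/6 mice. Each cell was sequenced in its own well by Smart-seq2, which reads full-length transcripts without molecular identifiers. The CD8 cells fill 1 plate labelled IL27raKO (called the KO plate), with a knockout of a receptor chain for the cytokine IL-27, and 1 wild-type plate (the WT plate). Genotype, source and plate cannot be told apart, since each genotype has 1 CD8 plate. The well titles give each plate a different animal name, which the labels do not explain, and each genotype was read as 1 source. The labels give no age, sorting gate or deleted part of the gene. CD4 cells fill 1 further plate per genotype, and each plate also has 1 population well and 1 no-cell well.

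Tcf7 encodes TCF1, an HMG-box transcription factor that partners with beta-catenin downstream of Wnt signals and is needed for T cell development. Among CD8 T cells it is high in naive and central memory cells and is shut down as effector cells form. In tumours and chronic viral infection, TCF1 marks a self-renewing pool of antigen-experienced cells that carry PD-1 and the surface receptor Slamf6, and that give rise to terminally differentiated cells carrying TIM-3.

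Tcf7 (chromosome 11, 52252371 to 52283014, minus strand, GRCm38) was listed in the kept CD8 cells either at 0 or at 3.26 FPKM and above. It was detected in 47 of 77 kept cells of the KO plate (61%, exact 95% interval 49.2 to 72) and in 19 of 72 kept cells of the WT plate (26.4%, 16.7 to 38.1). The intervals cover counting error only, and the difference between the plates was not tested because each genotype has 1 plate. In Tcf7-positive cells of the KO plate the Tcf7 value ran between 3.26 and 1744.5 FPKM, with a mean log2(FPKM + 1) of 8.08 ± 1.94 (SD over 47 cells). In those of the WT plate it ran between 15.9 and 1498.6 FPKM, with a mean of 7.73 ± 1.64 on that scale (SD over 19 cells). All 83 Tcf7-negative cells were listed at 0, so the lowest Tcf7-positive cells, at 3.26, 3.98 and 4.29 FPKM, had no neighbour just below the threshold. A listed 0 means that Tcf7 was not detected, and does not show that the cell lacked the transcript. Tcf7 stood at 345.67 FPKM in the population well of the KO plate and at 110.13 FPKM in that of the WT plate, and was listed at 0 in the no-cell wells.

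The KO plate had a median of 2249 detected genes in Tcf7-positive and 2243 in Tcf7-negative cells, and the WT plate had 2317 in Tcf7-positive and 2592 in Tcf7-negative cells. Detection of Cd8a and Cd4 matched the CD8 label in most cells, while Cd8b1 was called lower in Tcf7-positive cells. In the KO plate neither Cd8a nor Cd8b1 was detected in 5 of 47 Tcf7-positive and 1 of 30 Tcf7-negative cells. In the WT plate neither was detected in 1 of 19 Tcf7-positive and 3 of 53 Tcf7-negative cells. Cd8a was detected in 83% of Tcf7-positive and 80% of Tcf7-negative cells in the KO plate, and in 84.2% of Tcf7-positive and 84.9% of Tcf7-negative cells in the WT plate. Cd4 was detected in 1 of 47 Tcf7-positive and 0 of 30 Tcf7-negative cells in the KO plate, and in 0 of 19 Tcf7-positive and 0 of 53 Tcf7-negative cells in the WT plate. Cells with RNA of other cell types were found by a screen of melanoma, myeloid, B cell, NK and stromal markers that left out the melanoma gene Tyr. They made up 19.1% of Tcf7-positive and 13.3% of Tcf7-negative cells in the KO plate, and 31.6% of Tcf7-positive and 24.5% of Tcf7-negative cells in the WT plate. Of the markers proposed for the Tcf7-positive cells, Il7r was called higher and Slamf6 was not.

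Across the 7539 genes detected in at least 10% of kept CD8 cells, Tcf7-positive cells had more transcript of the lymph node homing receptor gene Ccr7, the egress receptor gene S1pr1 and the IL-7 receptor gene Il7r. They had less transcript of 6 of 14 tested co-inhibitory receptor genes, among them Havcr2 and Pdcd1, of the granule genes Gzmb and Prf1 and of the chemokine genes Ccl3 and Ccl4. For each gene, log2(FPKM + 1) was averaged over the cells of each class within each plate, and the difference is Tcf7-positive minus Tcf7-negative. This difference carries the share of cells with detection, so it is not a fold change of mean expression. With limma (adjusted p under 0.05, plate as block), 22 genes, or 0.292% of those tested, were higher in Tcf7-positive cells and 40 genes, or 0.531%, were lower. Without any test, 1.92% of the genes were at least 1 log2 higher and 3.1% at least 1 log2 lower in both plates, while 1.25% (94 genes) differed by that much in opposite directions. Of the genes called, 21 of the 22 higher and 37 of the 40 lower ones were also at least 1 log2 apart in both plates. The median difference of all tested genes was -0.04 in the KO plate and -0.19 in the WT plate. As a description over genes, which are not independent replicates, the differences in the 2 plates correlated with r = 0.28 and rho = 0.18.

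The limma calls rest on 4 plate-by-class means with 1 residual degree of freedom and a spread shared over all genes, so they do not measure the spread between mice. When the classes were matched cell by cell on the number of detected genes, 0 genes passed with limma (544 at an unadjusted p under 0.05), and 0 passed when limma's spread did not follow the mean level (774 at an unadjusted p under 0.05).

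**Figure D1:**
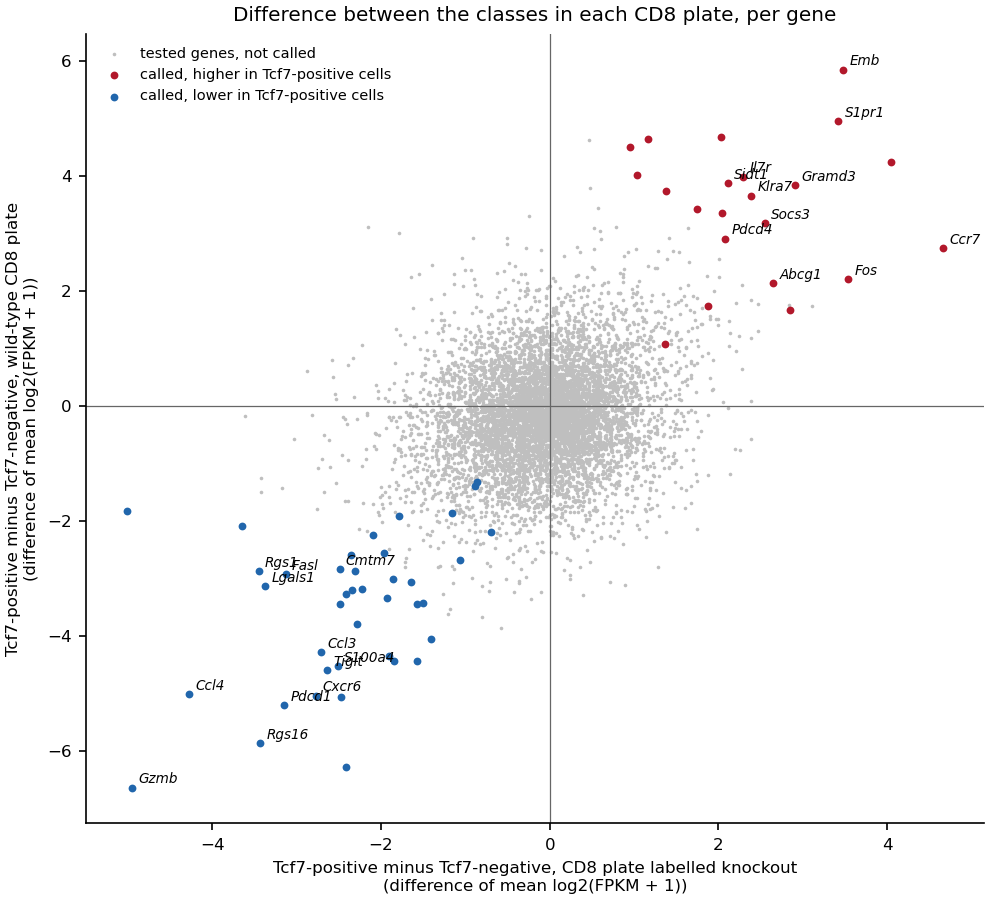
Difference of mean log2(FPKM + 1), Tcf7-positive minus Tcf7-negative cells, for each of the 7539 tested genes, with the CD8 plate labelled knockout on the horizontal axis and the wild-type CD8 plate on the vertical axis. Red points are the 22 genes called higher and blue points the 40 called lower by limma, and the names mark 11 higher and 12 lower genes among those whose smaller difference of the 2 plates was widest. Called genes lie in the upper right and lower left corners, where both plates have the same sign.

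Ranked by the smaller of their 2 plate differences, the leading genes called higher included Emb, S1pr1, Gramd3, Ccr7, Socs3, Klra7, Il7r, Fos, Abcg1, Sidt1 and Pdcd4. Those called lower began with Gzmb (chromosome 14, 56258838 to 56262260, minus strand), Ccl4, Rgs16, Pdcd1, Lgals1, Fasl, Rgs1, Cxcr6, Ccl3, Tigit, S100a4 and Cmtm7. TCF1 and its relatives are known to bind a short motif, CTTTGA on one strand or TCAAAG on the other, and promoter windows of these genes were searched for it on both strands. A window runs from 250 bases before to 50 bases after an annotated transcript start in RefSeq, build GRCm38.p6. Windows were matched for 7 of the 11 named higher genes, of which 2 (28.6%) held the motif, and for 9 of the 12 lower genes, of which 1 (11.1%) held it. Among all 27025 genes with a window, 4911 (18.2%) held it. The windows below are those of 2 higher genes, Emb (chr13:117220323-117220622, plus strand) and Il7r (chr15:9529827-9530126, minus strand), and of 2 lower genes, Cxcr6 (chr9:123806227-123806526, plus strand) and Gzmb (chr14:56262285-56262584, minus strand). They are shown because 1 gene of each direction holds the motif and 1 does not, and capitals mark the match.
Emb: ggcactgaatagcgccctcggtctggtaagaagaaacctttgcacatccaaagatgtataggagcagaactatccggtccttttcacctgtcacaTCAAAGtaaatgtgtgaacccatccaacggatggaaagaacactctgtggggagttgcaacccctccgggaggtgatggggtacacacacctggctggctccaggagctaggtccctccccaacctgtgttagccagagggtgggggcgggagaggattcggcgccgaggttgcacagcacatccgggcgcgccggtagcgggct
Il7r: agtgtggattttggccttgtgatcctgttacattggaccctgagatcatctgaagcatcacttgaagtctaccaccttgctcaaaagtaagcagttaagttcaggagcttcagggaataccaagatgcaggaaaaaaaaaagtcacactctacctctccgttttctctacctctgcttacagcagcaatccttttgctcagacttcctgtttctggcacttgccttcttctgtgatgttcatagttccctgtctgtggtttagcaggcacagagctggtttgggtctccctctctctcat
Cxcr6: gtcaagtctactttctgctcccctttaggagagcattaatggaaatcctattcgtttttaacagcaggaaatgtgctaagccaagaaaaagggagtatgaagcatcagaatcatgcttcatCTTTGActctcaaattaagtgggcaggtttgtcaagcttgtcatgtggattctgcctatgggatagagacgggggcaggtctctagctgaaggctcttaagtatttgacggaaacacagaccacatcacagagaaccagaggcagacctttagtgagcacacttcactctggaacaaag
Gzmb: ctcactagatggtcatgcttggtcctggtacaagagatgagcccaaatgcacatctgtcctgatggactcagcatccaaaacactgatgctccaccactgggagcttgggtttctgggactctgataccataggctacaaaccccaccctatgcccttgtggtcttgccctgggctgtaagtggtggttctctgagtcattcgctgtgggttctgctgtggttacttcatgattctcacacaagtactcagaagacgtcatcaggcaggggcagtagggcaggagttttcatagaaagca
The match begins at position -155 from the start in Emb and at position -129 in Cxcr6. A match is a run of letters and not a measured binding site, and the windows of Il7r and Gzmb show only that these letters are absent there.

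Of 19 tested genes of the naive and memory list, 4 rose in Tcf7-positive cells (Ccr7, S1pr1 and Il7r among them) and 0 fell by limma, and the other 15 did not pass. Over all tested genes, 0.292% were called higher and 0.531% lower. Differences above 0 were found for 17 of the 19 in the KO plate, with a median of 1.20, and for 19 of 19 in the WT plate, with a median of 1.31. Of the 17 tested trafficking and residence genes, 4 were called higher (Ccr7, S1pr1 and Emb among them) and 1 lower (Cxcr6), beside the same shares over all genes. The medians of that list were 0.48 in the KO plate and 0.92 in the WT plate.

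Ccr7, the receptor for the chemokines that guide T cells into lymph nodes, was detected in 55.3% of Tcf7-positive and 13.3% of Tcf7-negative cells in the KO plate, and in 31.6% of Tcf7-positive and 3.8% of Tcf7-negative cells in the WT plate. Its highest value was 8806.3 FPKM in Tcf7-positive and 545.9 FPKM in Tcf7-negative cells of the KO plate, and 3251.5 FPKM in Tcf7-positive and 92.1 FPKM in Tcf7-negative cells of the WT plate. Cells at 0 were found in every class, so the classes overlapped there, and the mean difference was 3.71 ± 0.60 log2 (SE, adjusted p = 0.00017, limma). S1pr1 (chromosome 3, 115710433 to 115715072, minus strand) encodes the receptor through which T cells leave tissue toward blood and lymph, and was detected in 32 of 47 Tcf7-positive and 9 of 30 Tcf7-negative cells in the KO plate, and in 15 of 19 Tcf7-positive and 6 of 53 Tcf7-negative cells in the WT plate. The mean difference of S1pr1 was 4.19 ± 0.63 log2 (SE, adjusted p = 5.8e-05, limma). Within a cell, Ccr7 and S1pr1 occurred together in 21 of 47 Tcf7-positive and 2 of 30 Tcf7-negative cells in the KO plate, and in 5 of 19 Tcf7-positive and 0 of 53 Tcf7-negative cells in the WT plate. Neither was detected in 21.3% of Tcf7-positive and 63.3% of Tcf7-negative cells in the KO plate, and in 15.8% of Tcf7-positive and 84.9% of Tcf7-negative cells in the WT plate.

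Emb (chromosome 13, 117208536 to 117274415, plus strand), which encodes the adhesion protein embigin, was found in 95.7% of Tcf7-positive and 66.7% of Tcf7-negative cells in the KO plate, and in 89.5% of Tcf7-positive and 28.3% of Tcf7-negative cells in the WT plate. Its median was 460.8 FPKM in Tcf7-positive and 33.6 FPKM in Tcf7-negative cells of the KO plate, and 390.5 FPKM in Tcf7-positive and 0 FPKM in Tcf7-negative cells of the WT plate. The ranges overlapped, and the mean difference was 4.67 ± 0.66 log2 (SE, adjusted p = 2.5e-05, limma). Pdcd4, which restrains translation initiation, was detected in 47 of 47 Tcf7-positive and 23 of 30 Tcf7-negative cells in the KO plate, and in 19 of 19 Tcf7-positive and 39 of 53 Tcf7-negative cells in the WT plate. Every Tcf7-positive cell thus had it, the lowest at 7.40 FPKM in the KO plate and 7.06 FPKM in the WT plate, and the mean difference was 2.49 ± 0.64 log2 (SE, adjusted p = 0.043, limma). Abcg1, a cholesterol exporter gene, was detected in 55.3% of Tcf7-positive and 13.3% of Tcf7-negative cells in the KO plate, and in 52.6% of Tcf7-positive and 20.8% of Tcf7-negative cells in the WT plate. Sidt1, which encodes a transmembrane protein linked to RNA transport, was detected in 59.6% of Tcf7-positive and 33.3% of Tcf7-negative cells in the KO plate, and in 78.9% of Tcf7-positive and 11.3% of Tcf7-negative cells in the WT plate. Gramd3, a gene for a GRAM domain protein of membrane contact sites, was detected in 87.2% of Tcf7-positive and 56.7% of Tcf7-negative cells in the KO plate, and in 94.7% of Tcf7-positive and 47.2% of Tcf7-negative cells in the WT plate.

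**Figure D2:**
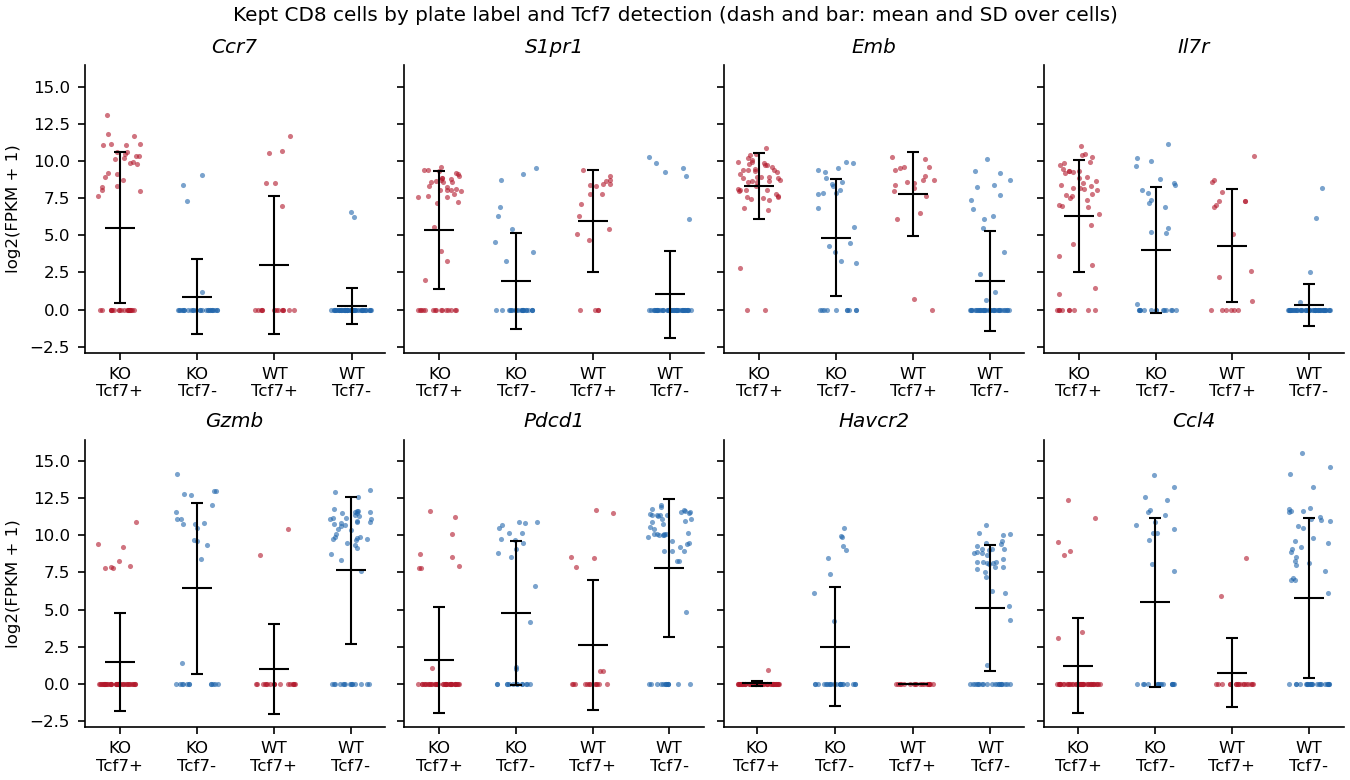
Values of 8 genes in each kept CD8 cell, as log2(FPKM + 1), for the plate labelled knockout (KO) and the wild-type plate (WT), each split into Tcf7-positive (red) and Tcf7-negative (blue) cells, with the mean as a dash and the SD over cells as a bar. Most cells lie either at 0 or far above it. The 4 genes of the upper row have a larger share of cells above 0 among Tcf7-positive cells, and the 4 of the lower row a smaller one.

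Il7r (chromosome 15, 9505788 to 9530176, minus strand) encodes the alpha chain of the IL-7 receptor, through which naive and memory T cells receive a survival signal. In the KO plate it had a median of 217.2 and a highest value of 2090.8 FPKM in Tcf7-positive cells, against 17.6 and 2269.3 FPKM in Tcf7-negative cells. In the WT plate it had a median of 33.3 and a highest value of 1299.5 FPKM in Tcf7-positive cells, against 0 and 291.1 FPKM in Tcf7-negative cells. Every class had cells at 0, and in the KO plate the ranges of the classes nearly coincided. Il7r was detected in 80.9% of Tcf7-positive and 50% of Tcf7-negative cells in the KO plate, and in 63.2% of Tcf7-positive and 5.7% of Tcf7-negative cells in the WT plate. The mean difference was 3.14 ± 0.64 log2 (SE, adjusted p = 0.004, limma). Il7r was the only 1 of 20 tested cytokine receptor genes that was called, against 0.292% of all genes called higher. The medians of that list were 0.05 in the KO plate and 0.46 in the WT plate.

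Socs3, which restrains signals through STAT3, was called higher (adjusted p = 0.01, limma) and was detected in 70.2% of Tcf7-positive and 40% of Tcf7-negative cells in the KO plate, and in 68.4% of Tcf7-positive and 28.3% of Tcf7-negative cells in the WT plate. Cish, another member of that inhibitor family, which is induced by signals through STAT5, was called lower (adjusted p = 0.0023, limma). Cish transcript was found in 12 of 47 Tcf7-positive and 24 of 30 Tcf7-negative cells in the KO plate, and in 3 of 19 Tcf7-positive and 20 of 53 Tcf7-negative cells in the WT plate.

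Co-inhibitory receptors fell in part: of 14 tested genes, 6 were called lower (Pdcd1, Havcr2, Lag3, Tigit, Entpd1 and Lilrb4) and 0 higher, against 0.531% of all genes called lower. The list medians were -1.14 in the KO plate and -2.46 in the WT plate. The other 8 did not pass. Among them Ctla4, which competes for the ligands of CD28, differed by -0.22 log2 in the KO plate and -3.36 log2 in the WT plate (adjusted p = 0.25, limma), and Cd160 differed by -0.04 log2 in the KO plate and 1.11 log2 in the WT plate (adjusted p = 0.8, limma).

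Havcr2 (chromosome 11, 46454935 to 46481255, plus strand), which encodes TIM-3, reached the detection threshold of 1 FPKM in no Tcf7-positive CD8 cell. Its transcript was detected in 0 of 47 Tcf7-positive and 9 of 30 Tcf7-negative cells in the KO plate, and in 0 of 19 Tcf7-positive and 33 of 53 Tcf7-negative cells in the WT plate. Over both plates that is 0 of 66 Tcf7-positive cells, and the exact Clopper-Pearson interval of that share reaches up to 5.4%. This interval covers counting error only, and it treats the cells of both plates as independent draws from a common pool. The highest value was 0.920 FPKM in Tcf7-positive and 1457.2 FPKM in Tcf7-negative cells of the KO plate, and 0.0 FPKM in Tcf7-positive and 1672.3 FPKM in Tcf7-negative cells of the WT plate. Many Tcf7-negative cells were also at 0, so the classes overlapped there, and the mean difference was -3.77 ± 0.59 log2 (SE, adjusted p = 0.00011, limma).

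Pdcd1 (chromosome 1, 94038305 to 94052553, minus strand), which encodes PD-1, was present in part of the Tcf7-positive cells. Pdcd1 transcript was found in 9 of 47 Tcf7-positive and 16 of 30 Tcf7-negative cells in the KO plate, and in 5 of 19 Tcf7-positive and 40 of 53 Tcf7-negative cells in the WT plate. Its median was 0 FPKM in Tcf7-positive and 8.94 FPKM in Tcf7-negative cells of the KO plate, and 0 FPKM in Tcf7-positive and 1052.8 FPKM in Tcf7-negative cells of the WT plate. The highest value was 3230.8 FPKM in Tcf7-positive and 1941.8 FPKM in Tcf7-negative cells of the KO plate, and 3292.3 FPKM in Tcf7-positive and 4241.1 FPKM in Tcf7-negative cells of the WT plate. The highest of the few Tcf7-positive cells with Pdcd1 thus reached values of high Tcf7-negative cells, while most of those few cells lay lower. The mean difference of Pdcd1 was -4.18 ± 0.65 log2 (SE, adjusted p = 0.0001, limma).

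Lag3, which binds MHC class II, was detected in 14.9% of Tcf7-positive and 40% of Tcf7-negative cells in the KO plate, and in 21.1% of Tcf7-positive and 79.2% of Tcf7-negative cells in the WT plate (adjusted p = 0.0001, limma). Tigit, a receptor for nectin-like ligands, was detected in 48.9% of Tcf7-positive and 73.3% of Tcf7-negative cells in the KO plate, and in 68.4% of Tcf7-positive and 84.9% of Tcf7-negative cells in the WT plate (adjusted p = 0.00092, limma). In the WT plate the median of the detecting cells was 5.60 FPKM in the 13 Tcf7-positive and 838.2 FPKM in the 45 Tcf7-negative cells, so Tigit was often present at a low value in Tcf7-positive cells there. Entpd1, which encodes the ectonucleotidase CD39, was detected in 4.3% of Tcf7-positive and 26.7% of Tcf7-negative cells in the KO plate, and in 5.3% of Tcf7-positive and 66% of Tcf7-negative cells in the WT plate (adjusted p = 0.0018, limma). Lilrb4, an inhibitory receptor gene better known from myeloid cells, was detected in 21.3% of Tcf7-positive and 46.7% of Tcf7-negative cells in the KO plate, and in 5.3% of Tcf7-positive and 43.4% of Tcf7-negative cells in the WT plate (adjusted p = 0.031, limma).

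Counted within single cells, the transcripts of Pdcd1, Havcr2, Lag3 and Tigit occurred together in 0 of 47 Tcf7-positive and 8 of 30 Tcf7-negative cells in the KO plate, and in 0 of 19 Tcf7-positive and 31 of 53 Tcf7-negative cells in the WT plate. At least 3 of the 4 occurred in 6.4% of Tcf7-positive and 40% of Tcf7-negative cells in the KO plate, and in 10.5% of Tcf7-positive and 73.6% of Tcf7-negative cells in the WT plate. None of the 4 was detected in 38.3% of Tcf7-positive and 16.7% of Tcf7-negative cells in the KO plate, and in 21.1% of Tcf7-positive and 7.5% of Tcf7-negative cells in the WT plate. Exactly 1 of them was found in 22 of 47 Tcf7-positive cells of the KO plate and in 10 of 19 of the WT plate.

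**Figure D3:**
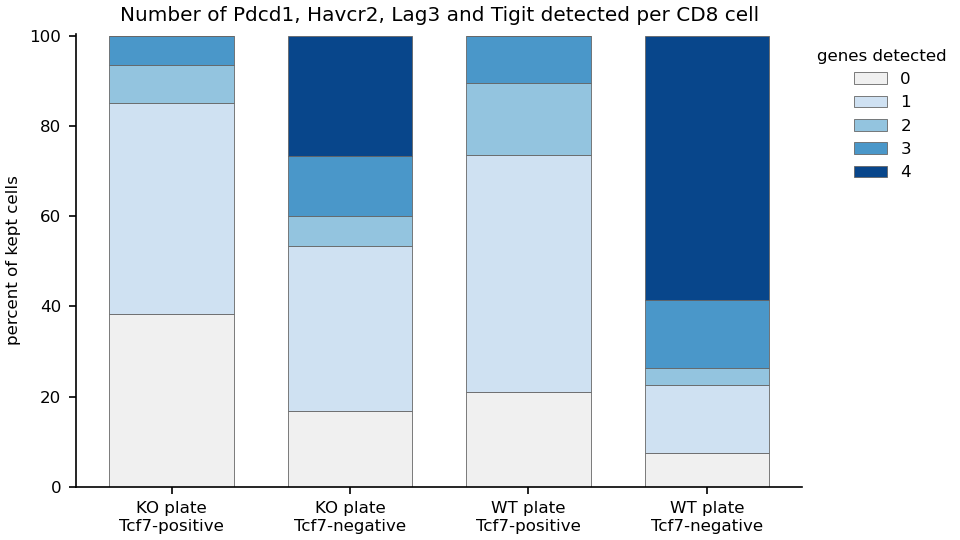
Percent of kept CD8 cells by the number of detected genes among Pdcd1, Havcr2, Lag3 and Tigit (0 to 4, light to dark), for Tcf7-positive and Tcf7-negative cells of the plate labelled knockout (KO) and of the wild-type plate (WT). The darkest part, cells with all 4, is missing from both Tcf7-positive bars and makes up 26.7% of the Tcf7-negative bar of the KO plate and 58.5% of that of the WT plate.

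Genes associated with stem-like exhausted cells gave no call. Of 9 tested genes, 0 passed in either direction with limma. At an unadjusted p under 0.05 there were 2 higher and 2 lower, against 854 of all 7539 genes in either direction. The list medians were -0.53 in the KO plate and 0.59 in the WT plate, and 2 members were at least 1 log2 higher and 2 at least 1 log2 lower in both plates. Slamf6 (chromosome 1, 171917515 to 171953170, plus strand), a homotypic receptor of the SLAM family, was detected in 22 of 47 Tcf7-positive and 11 of 30 Tcf7-negative cells in the KO plate, and in 5 of 19 Tcf7-positive and 5 of 53 Tcf7-negative cells in the WT plate. Its median was 0 FPKM in both classes of both plates and the ranges overlapped, with a mean difference of 0.93 ± 0.56 log2 (SE, adjusted p = 0.58, limma). Tnfsf8, the ligand of CD30, differed by 1.36 log2 in the KO plate and 1.35 log2 in the WT plate (adjusted p = 0.2, limma). The chemokine receptor gene Cxcr3 differed by 1.25 log2 in the KO plate and 2.40 log2 in the WT plate (adjusted p = 0.2, limma). The pair at least 1 log2 lower in both plates were Tnfrsf4, which encodes the co-stimulatory receptor OX40, and Ly6a, which encodes Sca-1. Tnfrsf4 differed by -1.57 log2 in the KO plate and -1.40 log2 in the WT plate (adjusted p = 0.1, limma). Ly6a differed by -1.13 log2 in the KO plate and -1.66 log2 in the WT plate (adjusted p = 0.39, limma).

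Pdcd1 and Slamf6 occurred together in 8 of 47 Tcf7-positive and 5 of 30 Tcf7-negative cells in the KO plate, and in 1 of 19 Tcf7-positive and 5 of 53 Tcf7-negative cells in the WT plate. Of the Tcf7-positive cells with Pdcd1, 4 of 9 in the KO plate and 1 of 5 in the WT plate also had Ccr7. Id3 and Cxcr5, a transcriptional inhibitor and a follicle homing receptor linked to the stem-like pool, were too rare to be tested and are named here after their values were seen. Cxcr5 was detected in 5 of 47 Tcf7-positive and 0 of 30 Tcf7-negative cells in the KO plate, and in 2 of 19 Tcf7-positive and 0 of 53 Tcf7-negative cells in the WT plate. Id3 was detected in 5 of 47 Tcf7-positive and 1 of 30 Tcf7-negative cells in the KO plate, and in 5 of 19 Tcf7-positive and 0 of 53 Tcf7-negative cells in the WT plate.

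Cytotoxic genes fell in part, with 4 of 16 tested called lower (Gzmb, Prf1, Fasl and Gzmk) and 0 called higher by limma, against 0.531% of all genes called lower. The list medians were -1.65 in the KO plate and -0.85 in the WT plate. Gzmb, the granzyme B protease of cytotoxic granules, had the widest mean difference of the called genes. Gzmb transcript was found in 8 of 47 Tcf7-positive and 18 of 30 Tcf7-negative cells in the KO plate, and in 2 of 19 Tcf7-positive and 38 of 53 Tcf7-negative cells in the WT plate. Its median was 0 FPKM (highest 1920.3) in Tcf7-positive and 724.9 FPKM (highest 17666.3) in Tcf7-negative cells of the KO plate. In the WT plate its median was 0 FPKM (highest 1362.1) in Tcf7-positive and 955.4 FPKM (highest 8445.9) in Tcf7-negative cells. The Tcf7-positive cells with Gzmb lay inside the range of the Tcf7-negative cells, and the mean difference was -5.79 ± 0.64 log2 (SE, adjusted p = 1.8e-07, limma). Gzmb and Pdcd1 occurred together in 1 of 47 Tcf7-positive and 10 of 30 Tcf7-negative cells in the KO plate, and in 0 of 19 Tcf7-positive and 36 of 53 Tcf7-negative cells in the WT plate.

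Prf1, the pore-forming protein perforin, was detected in 8.5% of Tcf7-positive and 46.7% of Tcf7-negative cells in the KO plate, and in 26.3% of Tcf7-positive and 45.3% of Tcf7-negative cells in the WT plate (adjusted p = 0.0064, limma). Fasl, which triggers death of cells bearing Fas, was detected in 19.1% of Tcf7-positive and 60% of Tcf7-negative cells in the KO plate, and in 21.1% of Tcf7-positive and 52.8% of Tcf7-negative cells in the WT plate (adjusted p = 0.0033, limma). Gzmk, a further granule protease, was detected in 1 of 47 Tcf7-positive and 6 of 30 Tcf7-negative cells in the KO plate, and in 3 of 19 Tcf7-positive and 33 of 53 Tcf7-negative cells in the WT plate (adjusted p = 0.0049, limma). The other 12 tested genes of the list did not pass, although 8 of the 16 were at least 1 log2 lower in both plates and 1 was at least 1 log2 higher. Klrc1, which encodes the inhibitory receptor NKG2A and is named here after its values were seen, differed by -3.42 in the KO plate and -1.49 in the WT plate (adjusted p = 0.053, limma). Lamp1, a lysosomal membrane protein gene, differed by 1.08 log2 in the KO plate and 1.90 log2 in the WT plate (adjusted p = 0.2, limma), and the cathepsin gene Ctsw by 0.30 log2 in the KO plate and 1.48 log2 in the WT plate (adjusted p = 0.63, limma).

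Of 12 tested cytokines and chemokines, Ccl3 and Ccl4, which encode inflammatory chemokines, were called lower and 0 were called higher by limma, against 0.531% of all genes called lower. The list medians were -1.02 in the KO plate and -0.53 in the WT plate. Ccl4 (chromosome 11, 83662584 to 83664683, plus strand) was detected in 7 of 47 Tcf7-positive and 15 of 30 Tcf7-negative cells in the KO plate, and in 2 of 19 Tcf7-positive and 30 of 53 Tcf7-negative cells in the WT plate. The highest value was 5235.9 FPKM in Tcf7-positive and 17239.5 FPKM in Tcf7-negative cells of the KO plate, and 357.3 FPKM in Tcf7-positive and 49042.3 FPKM in Tcf7-negative cells of the WT plate. Cells at 0 were found in every class, and the mean difference of Ccl4 was -4.64 ± 0.61 log2 (SE, adjusted p = 6.3e-06, limma). Ccl3 was detected in 2 of 47 Tcf7-positive and 9 of 30 Tcf7-negative cells in the KO plate, and in 0 of 19 Tcf7-positive and 25 of 53 Tcf7-negative cells in the WT plate. Ltb, which encodes lymphotoxin beta, differed by 0.60 log2 in the KO plate and 3.04 log2 in the WT plate (adjusted p = 0.21, limma). Cxcr6, a receptor linked to residence in tissue, was detected in 36.2% of Tcf7-positive and 63.3% of Tcf7-negative cells in the KO plate, and in 31.6% of Tcf7-positive and 71.7% of Tcf7-negative cells in the WT plate. The mean difference of Cxcr6 was -3.91 ± 0.66 log2 (SE, adjusted p = 0.00034, limma).

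Rgs16 and Rgs1, both called lower, shorten signalling by G protein-coupled receptors, chemokine receptors among them. Rgs16 was detected in 3 of 47 Tcf7-positive and 12 of 30 Tcf7-negative cells in the KO plate, and in 0 of 19 Tcf7-positive and 35 of 53 Tcf7-negative cells in the WT plate (adjusted p = 6.3e-06, limma). Rgs1 was detected in 44.7% of Tcf7-positive and 76.7% of Tcf7-negative cells in the KO plate, and in 36.8% of Tcf7-positive and 60.4% of Tcf7-negative cells in the WT plate (adjusted p = 0.004, limma). The galectin gene Lgals1 was widespread in both classes, with detection in 63.8% of Tcf7-positive and 96.7% of Tcf7-negative cells in the KO plate, and in 63.2% of Tcf7-positive and 81.1% of Tcf7-negative cells in the WT plate. Its median was 210.3 FPKM in Tcf7-positive and 718.6 FPKM in Tcf7-negative cells of the KO plate, and 355.2 FPKM in Tcf7-positive and 1970.8 FPKM in Tcf7-negative cells of the WT plate (adjusted p = 0.0018, limma).

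Lgals3, another galectin gene, was detected in 17% of Tcf7-positive and 40% of Tcf7-negative cells in the KO plate, and in 5.3% of Tcf7-positive and 41.5% of Tcf7-negative cells in the WT plate (adjusted p = 0.0052, limma). The calcium-binding protein gene S100a4 was detected in 21.3% of Tcf7-positive and 46.7% of Tcf7-negative cells in the KO plate, and in 15.8% of Tcf7-positive and 64.2% of Tcf7-negative cells in the WT plate (adjusted p = 0.00092, limma). Tnfrsf9, the co-stimulatory receptor 4-1BB, was detected in 19.1% of Tcf7-positive and 36.7% of Tcf7-negative cells in the KO plate, and in 10.5% of Tcf7-positive and 56.6% of Tcf7-negative cells in the WT plate (adjusted p = 0.0033, limma). Fgl2, which encodes a fibrinogen-like protein, was detected in 3 of 47 Tcf7-positive and 11 of 30 Tcf7-negative cells in the KO plate, and in 0 of 19 Tcf7-positive and 27 of 53 Tcf7-negative cells in the WT plate (adjusted p = 0.0023, limma).

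Among 20 tested transcription factors of effector and dysfunctional T cells, Id2 and Bhlhe40 were called lower and 0 were called higher by limma, against 0.531% of all genes called lower. The list medians were -0.56 in the KO plate and -1.53 in the WT plate. Id2, an inhibitor of E proteins that effector CD8 cells need, was detected in 53.2% of Tcf7-positive and 80% of Tcf7-negative cells in the KO plate, and in 52.6% of Tcf7-positive and 81.1% of Tcf7-negative cells in the WT plate (adjusted p = 0.023, limma). Bhlhe40, a basic helix-loop-helix repressor induced by activation, was detected in 42.6% of Tcf7-positive and 63.3% of Tcf7-negative cells in the KO plate, and in 26.3% of Tcf7-positive and 73.6% of Tcf7-negative cells in the WT plate (adjusted p = 0.0064, limma). Tox, a factor of exhausted T cells, was not called, with differences of 0.39 log2 in the KO plate and -3.29 log2 in the WT plate (adjusted p = 0.36, limma). Its transcript was found in 17% of Tcf7-positive and 13.3% of Tcf7-negative cells in the KO plate, and in 26.3% of Tcf7-positive and 60.4% of Tcf7-negative cells in the WT plate. The gap between the plates was not tested.

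The Wnt and TCF partner list had 0 calls in 17 tested genes with limma (2 higher and 0 lower at an unadjusted p under 0.05), with medians of 0.15 in the KO plate and 0.08 in the WT plate. Lef1, the closest relative of Tcf7, was detected in 51.1% of Tcf7-positive and 36.7% of Tcf7-negative cells in the KO plate, and in 63.2% of Tcf7-positive and 35.8% of Tcf7-negative cells in the WT plate. The mean difference of Lef1 was 1.34 ± 0.60 log2 (SE, adjusted p = 0.37, limma). Ctnnb1, which encodes beta-catenin, differed by 0.61 log2 in the KO plate and 1.00 log2 in the WT plate (adjusted p = 0.61, limma). Of 21 immediate early genes, which follow a stimulus within minutes, 1 was called, Fos, a subunit of AP-1, against 0.292% of all genes called higher. Fos was detected in 66% of Tcf7-positive and 26.7% of Tcf7-negative cells in the KO plate, and in 52.6% of Tcf7-positive and 26.4% of Tcf7-negative cells in the WT plate (adjusted p = 0.01, limma). The medians of that list were -0.26 in the KO plate and 0.43 in the WT plate, and Dusp1, a phosphatase gene of the same early response, differed by -0.75 log2 in the KO plate and -1.49 log2 in the WT plate (adjusted p = 0.53, limma).

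**Figure D4:**
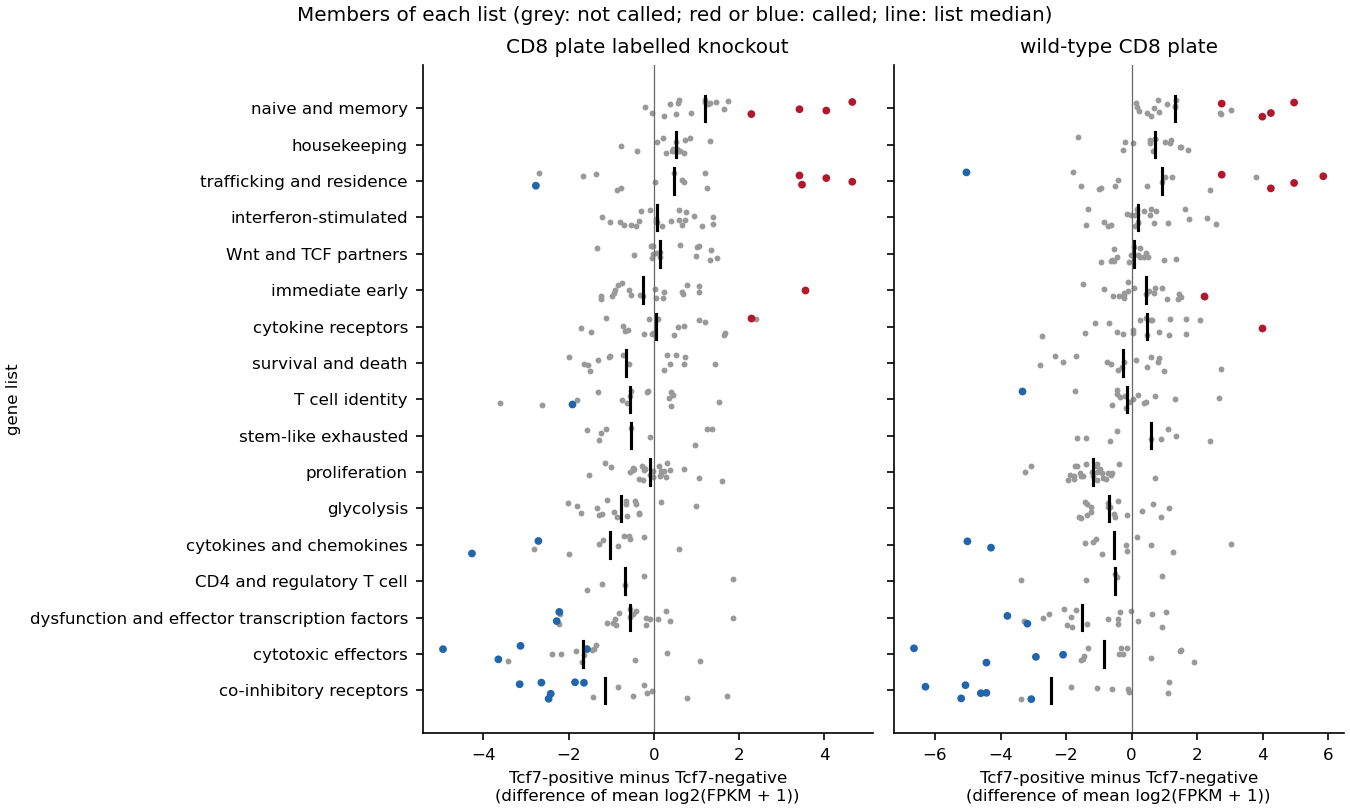
Difference of mean log2(FPKM + 1), Tcf7-positive minus Tcf7-negative cells, for each tested member of 17 gene lists, in the CD8 plate labelled knockout (left) and the wild-type CD8 plate (right). Red and blue points are genes called higher and lower by limma, grey points were not called, and the vertical bar is the list's median. Blue points lie mainly in the co-inhibitory and cytotoxic lists, and red ones in the naive and memory and the trafficking lists.

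A pair of Ly49 receptor genes, usually found on NK cells and on some CD8 T cells, was higher. Klra7 was detected in 13 of 47 Tcf7-positive and 0 of 30 Tcf7-negative cells in the KO plate, and in 7 of 19 Tcf7-positive and 1 of 53 Tcf7-negative cells in the WT plate (adjusted p = 0.00092, limma). Klra1, a near relative whose reads RSEM may share with Klra7, was detected in 11 of 47 Tcf7-positive and 0 of 30 Tcf7-negative cells in the KO plate, and in 6 of 19 Tcf7-positive and 1 of 53 Tcf7-negative cells in the WT plate (adjusted p = 0.043, limma). Of the Tcf7-positive cells with Klra7, 13 of 13 in the KO plate and 7 of 7 in the WT plate also had the T cell receptor component gene Cd3e. Of the 6 NK cell markers listed, at least 1 was detected in 17 of 47 Tcf7-positive and 11 of 30 Tcf7-negative cells of the KO plate, and in 8 of 19 Tcf7-positive and 24 of 53 Tcf7-negative cells of the WT plate. Among them Ncr1 was detected in 0 of 66 Tcf7-positive and 0 of 83 Tcf7-negative cells. Klrb1c, which encodes NK1.1, was detected in 5 of 47 Tcf7-positive and 2 of 30 Tcf7-negative cells of the KO plate, and in 5 of 19 Tcf7-positive and 1 of 53 Tcf7-negative cells of the WT plate. The part of NK cell RNA in the Ly49 values was not tested. Cd8a was found in 7 of those 13 cells of the KO plate and 7 of those 7 of the WT plate, and Cd8b1 in 6 of 13 in the KO plate and 4 of 7 in the WT plate. Ikzf2, which encodes Helios, was found in 10 of the 13 cells of the KO plate and 6 of the 7 of the WT plate. Fcer1g, an adaptor chain also listed as a myeloid marker, was found in 7 of the 13 cells of the KO plate and 3 of the 7 of the WT plate. The co-detection was counted after the values were seen. In the KO plate, the Tcf7-positive cells with Klra7 had Cd8a and Cd8b1 less often than all Tcf7-positive cells of that plate. The shares of Cd3e, Ikzf2 and Fcer1g over all Tcf7-positive cells are not given here, so these counts do not show an enrichment. Over all cells, Ikzf2 differed by 1.87 log2 in the KO plate and 0.92 log2 in the WT plate (adjusted p = 0.16, limma) and Fcer1g by 2.00 log2 in the KO plate and 1.41 log2 in the WT plate (adjusted p = 0.11, limma).

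Of 16 tested T cell identity genes, Cd8b1 was called lower and 0 were called higher by limma, against 0.531% of all genes called lower. The list medians were -0.55 in the KO plate and -0.13 in the WT plate. Cd8b1, the beta chain of the CD8 co-receptor, was detected in 78.7% of Tcf7-positive and 93.3% of Tcf7-negative cells in the KO plate, and in 73.7% of Tcf7-positive and 94.3% of Tcf7-negative cells in the WT plate. The mean difference of Cd8b1 was -2.64 ± 0.61 log2 (SE, adjusted p = 0.018, limma). Cd8a, the alpha chain, differed by -0.13 log2 in the KO plate and -0.43 log2 in the WT plate (adjusted p = 0.95, limma). Cd8a without Cd8b1 was found in 5 of 47 Tcf7-positive and 1 of 30 Tcf7-negative cells in the KO plate, and in 4 of 19 Tcf7-positive and 0 of 53 Tcf7-negative cells in the WT plate.

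Genes of the cell cycle had 0 calls in 27 tested with limma (0 higher and 4 lower at an unadjusted p under 0.05), and the list medians were -0.10 in the KO plate and -1.18 in the WT plate. Cells with Mki67 or Top2a, markers of dividing cells, made up 7 of 47 Tcf7-positive (14.9%) and 6 of 30 Tcf7-negative cells (20%) of the KO plate, and 4 of 19 Tcf7-positive (21.1%) and 28 of 53 Tcf7-negative cells (52.8%) of the WT plate. Without those cells, 11 genes were called higher and 9 lower, of which 8 were among the 22 and 9 among the 40 named as called above. All 32 called genes among the leading and list genes that are reported kept their sign without the cycling cells. That is no independent check, since these genes were chosen from calls that also used the remaining cells.

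The next 5 lists had 0 calls with limma. At an unadjusted p under 0.05 there were 0 higher and 4 lower of the 18 glycolysis genes, 1 and 1 of the 23 interferon-stimulated genes, 1 and 5 of the 16 survival and death genes, 1 and 0 of the 15 housekeeping genes, and 1 and 2 of the 5 CD4 and regulatory T cell genes. The glycolysis genes had medians of -0.76 in the KO plate and -0.69 in the WT plate, and the glucose transporter gene Slc2a3 differed by -2.01 log2 in the KO plate and -1.59 log2 in the WT plate (adjusted p = 0.14, limma). The interferon-stimulated genes had medians of 0.08 in the KO plate and 0.19 in the WT plate. Tgtp2, an interferon-inducible GTPase gene outside that list with a near-identical copy, was called higher (adjusted p = 0.0032, limma) and was detected in 48.9% of Tcf7-positive and 23.3% of Tcf7-negative cells in the KO plate, and in 89.5% of Tcf7-positive and 39.6% of Tcf7-negative cells in the WT plate. The survival and death genes had medians of -0.65 in the KO plate and -0.25 in the WT plate, and the survival gene Bcl2 differed by 0.53 log2 in the KO plate and 2.73 log2 in the WT plate (adjusted p = 0.27, limma). The housekeeping genes had medians of 0.53 in the KO plate and 0.70 in the WT plate, and the CD4 and regulatory T cell genes -0.68 in the KO plate and -0.52 in the WT plate.

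Few markers of other cell types were common enough to test, and none passed. Of the melanoma genes, Pmel differed by 0.22 log2 in the KO plate and 1.16 log2 in the WT plate, and Tyr by 0.20 and -0.18 log2. Fcer1g, the only myeloid marker tested, differed by 2.00 log2 in the KO plate and 1.41 log2 in the WT plate (adjusted p = 0.11, limma). Cd22 of B cells differed by 0.18 log2 in the KO plate and 0.27 log2 in the WT plate. Eomes, listed for NK cells but also used by T cells, differed by 0.29 log2 in the KO plate and -1.84 log2 in the WT plate, and Pecam1 of stroma by 0.07 log2 in the KO plate and 0.58 log2 in the WT plate. The summed level of the 15 myeloid markers had a median of 0 FPKM in both classes of both plates. Its highest value was 54247.2 FPKM in Tcf7-positive and 622.0 FPKM in Tcf7-negative cells of the KO plate. In the WT plate the highest was 64084.1 FPKM in Tcf7-positive and 86727.5 FPKM in Tcf7-negative cells. At least 1 of the 15 myeloid markers was detected in 17 of 47 Tcf7-positive and 5 of 30 Tcf7-negative cells of the KO plate, and in 9 of 19 Tcf7-positive and 21 of 53 Tcf7-negative cells of the WT plate. With cells showing RNA of other types (Tyr aside) left out, 7 genes were called higher and 22 lower, all of them among the 22 and 40 genes called in all cells.

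Between the plates, the mean levels of several of these genes stood further apart in Tcf7-negative than in Tcf7-positive cells, which was not tested because each genotype has 1 plate. The KO minus WT difference of mean log2(FPKM + 1) of Pdcd1 was -1.03 in Tcf7-positive and -3.07 in Tcf7-negative cells. For Lag3 it was 0.34 in Tcf7-positive and -3.53 in Tcf7-negative cells, and for Emb 0.55 in Tcf7-positive and 2.92 in Tcf7-negative cells. For Ccr7 the gap was the wider one in Tcf7-positive cells, at 2.53, against 0.63 in Tcf7-negative cells. The narrower gaps stood where detection was rare or nearly complete. Tcf7-positive cells had Lag3 in 14.9% (KO) and 21.1% (WT) and Emb in 95.7% and 89.5%. Tcf7-negative cells had Ccr7 in 13.3% (KO) and 3.8% (WT). How far such shares limit a gap was not tested.

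The same split was made in the CD4 plates, which the rule had not used. There 18 of 78 cells of the KO CD4 plate (23.1%) and 25 of 74 of the WT CD4 plate (33.8%) were Tcf7-positive. Of 6937 genes, 0.951% were at least 1 log2 higher and 4.6% at least 1 log2 lower in both CD4 plates, with no test. Of the genes that were higher by this rule in CD8 cells, 19 were also higher in CD4 cells (13.7% of the CD8 genes and 28.8% of the CD4 genes). Of those lower in CD8 cells, 53 were also lower in CD4 cells (23% of the CD8 genes and 16.6% of the CD4 genes). Ccr7, S1pr1, Emb, Socs3, Pdcd4, Gpr183, Klhl6 and Skap1 were among the shared higher genes. Gzmb, Havcr2, Lag3, Entpd1, Lgals1, Lgals3, S100a4, Tnfrsf9, Cish and Fgl2 were among the shared lower ones.

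Ccr7 was detected in 44.4% of Tcf7-positive and 5% of Tcf7-negative cells in the KO CD4 plate, and in 40% of Tcf7-positive and 4.1% of Tcf7-negative cells in the WT CD4 plate. Havcr2 was again detected in 0 of 43 Tcf7-positive CD4 cells, with both CD4 plates pooled (exact interval up to 8.2%, counting error only). Among Tcf7-negative cells it was detected in 9 of 60 of the KO CD4 plate and 11 of 49 of the WT CD4 plate. Pdcd1 differed by -0.47 log2 in the KO CD4 plate and -0.91 log2 in the WT CD4 plate, and in the CD8 pair by -3.15 log2 in the KO plate and -5.20 log2 in the WT plate. Cxcr6 differed by 0.00 log2 in the KO CD4 plate and 0.85 log2 in the WT CD4 plate, and in the CD8 pair by -2.77 log2 in the KO plate and -5.04 log2 in the WT plate. Slamf6 differed by 1.89 log2 in the KO CD4 plate and 3.21 log2 in the WT CD4 plate, and in the CD8 pair by 0.97 log2 in the KO plate and 0.90 log2 in the WT plate. A limma test of the difference between CD8 and CD4 cells called 0 genes at an adjusted p under 0.05, with 426 genes (6.14%) at an unadjusted p under 0.05. None of these gaps passed it, at an adjusted p of 0.42 for Pdcd1, 0.26 for Cxcr6 and 0.82 for Slamf6 (limma, 2 residual degrees of freedom over 8 means). Foxp3, the regulatory T cell factor, was detected in 11.1% of Tcf7-positive and 58.3% of Tcf7-negative cells in the KO CD4 plate, and in 8% of Tcf7-positive and 51% of Tcf7-negative cells in the WT CD4 plate. The Tcf7-negative CD4 cells thus held most of the cells with that transcript. The part of cells with Foxp3 in the CD4 differences, those of the shared lower genes included, was not tested.

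**Figure D5:**
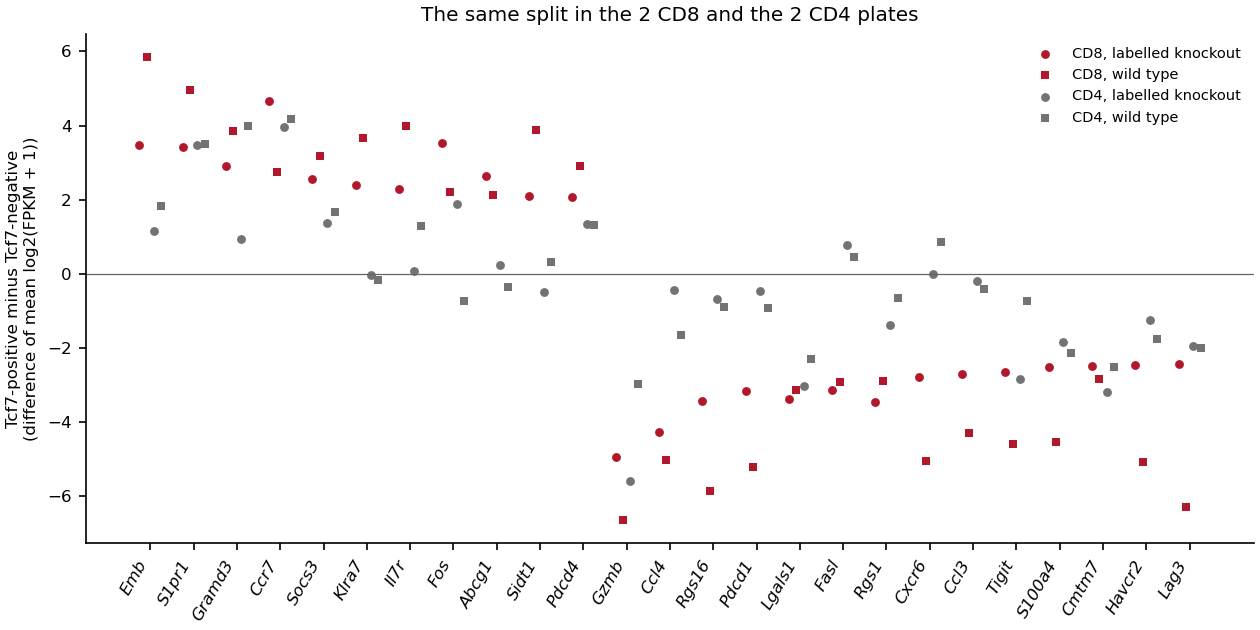
Difference of mean log2(FPKM + 1), Tcf7-positive minus Tcf7-negative cells, of 25 named genes in the 2 CD8 plates (red) and the 2 CD4 plates (grey), with circles for plates labelled knockout and squares for wild type. Most of the genes were chosen for having the same sign in both CD8 plates, so the CD8 points of a gene lie on one side of 0. The CD4 points of several genes lie nearer to 0 or across it, among them Pdcd1, Cxcr6, Fasl, Abcg1, Sidt1, Klra7 and Ccl3.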

How the data were processed

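The authors deposited 1 table of FPKM with TMM normalization for 23420 gene symbols in 384 wells. Per the submitters' processing notes, Bowtie, RSEM and build mm10 were used. Their versions: not given in the sources used here. Reads shared by near-identical genes are split by an estimate in RSEM, so Klra1, Klra7 and Tgtp2 are uncertain. Read counts could not be recovered: 27.7% of values under 10 estimated steps were whole to within 0.1, where an even spread would give 20%. Depth is therefore given as detected genes, and no interval covers more than counting error.

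Wells were grouped by their titles, since the treatment label names CD8 cells for every plate. Genes detected (1 FPKM or more) in at least 10% of kept CD8 cells were tested. Values were log2(FPKM + 1) from the deposited FPKM, with a pseudocount of 1, which understates changes of low genes. Means per plate and class were fitted with limma 3.58.1 (R 4.3.3; lmFit, eBayes with trend, plate as block) and Benjamini-Hochberg adjustment over all tested genes. Tcf7 was left out. Intervals of shares are exact Clopper-Pearson intervals at 95%, from scipy 1.17.1. No doublet caller was run, and each well is its own library, so no barcode is shared. Gene positions are from GENCODE (GRCm38).

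Named genes were Tcf7, Il7r and Slamf6; the 12 called genes per direction with the widest smaller difference of the 2 plates; each list's called members and its 2 highest and 2 lowest; and genes of the co-detection counts. Other names were added after their values were seen. A few genes that entered the fits and list counts are not reported here. The members, the 22 lists and the tests were chosen with earlier results of these data known. The alternatives covered the pseudocount, detection filter, Tcf7 threshold, cell filter, matching on or adjusting for detected genes, arithmetic means, rescaling, weights, the limma trend, cycling cells, cells with other RNA, and leaving out a plate. The scripts were tested on simulated data.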

Additional observations from a re-analysis of the deposited data

Results flagged for a closer look

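Of the genes named, Il27ra and Tbx21 differed in opposite directions in the 2 CD8 plates by more than 1 log2. Il27ra, the gene targeted in the mice of the CD8 plate labelled knockout (KO; the wild-type one is WT), differed between Tcf7-positive and Tcf7-negative cells by 1.19 log2 in the KO plate and -1.43 log2 in the WT plate. Its transcript was found in 63.8% of Tcf7-positive and 46.7% of Tcf7-negative cells in the KO plate, and in 36.8% of Tcf7-positive and 56.6% of Tcf7-negative cells in the WT plate. The labels do not say which part of the gene is deleted, so these values do not check them. Tbx21, which encodes the effector factor T-bet, differed by -2.23 log2 in the KO plate and 1.06 log2 in the WT plate. Neither difference between plates was tested, since each genotype has 1 plate, and 94 of all 7539 genes differed in opposite directions by 1 log2 or more.

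Tyr, the pigment enzyme gene of melanocytes and melanoma, was detected in 75 of 77 kept cells of the CD8 plate labelled knockout and 72 of 72 of the wild-type CD8 plate. It was detected in 77 of 78 cells of the CD4 plate labelled knockout and 74 of 74 of the wild-type CD4 plate. Its medians were low, at 7.73 FPKM in the CD8 plate labelled knockout and 8.72 FPKM in the wild-type CD8 plate, and it was listed at 0 in the no-cell wells. The pigment gene Dct was detected in 1 of 77 cells of the CD8 plate labelled knockout and 11 of 72 of the wild-type CD8 plate. The class differences of Tyr were 0.20 log2 in the KO plate and -0.18 log2 in the WT plate (adjusted p = 1, limma).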

How the results depend on the processing

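Calls by limma, 22 higher and 40 lower, came to 48 and 85 with a pseudocount of 0.1, 38 and 63 with genes in 25% of cells, 40 and 82 with Tcf7 at 10 FPKM, and 6 and 26 in cells with 2000 genes. They came to 0 and 0 when cells were matched on detected genes (544 genes at an unadjusted p under 0.05) and 0 and 0 without the limma trend (774). All 32 called named genes kept their sign in both. The trend setting does not alter the differences, so no sign could turn there, and matching reused part of the same cells. Matching left 26 cells of each class in the plate labelled knockout and 18 in the wild-type plate. Adjusting for detected genes gave 39 higher and 60 lower calls, which included all 22 and 40 of the main fit. Rescaling each cell to one total gave 36 and 59, and arithmetic means 3 and 20. Leaving out cells with other-cell RNA (Tyr aside, chosen after seeing the data) gave 7 and 22, and leaving out cycling cells 11 and 9. The shares of genes 1 log2 higher and lower in both CD8 plates, 1.92% and 3.1%, came to 3.52% and 6.78% with a pseudocount of 0.1, 3.31% and 5.18% with genes in 25% of cells, 1.05% and 1.67% with no detection filter, 0.936% and 7.57% in cells with 2000 genes and 4.25% and 1.39% without cycling cells, and arithmetic means gave 3.36% higher. Within 1 plate alone, with no test, they ran between 5.7% and 9.05% higher and between 9.3% and 16.1% lower. The CD8 against CD4 test called 1 gene with the 25% filter, 4 adjusted for detected genes and 6 after rescaling, against 0. The cause of these shifts was not tested. All 32 called named genes kept their direction in every alternative that gave them a value (30 under the 25% filter). They were chosen as called in the same cells, so their kept direction is largely set by that choice and is no independent check. Among the genes reported, signs turned only for uncalled ones. In cells with 2000 genes the differences were -0.44 for Cd27, -0.43 for Hmgb2, -0.88 for Ldha, -0.58 for Runx3 and -0.39 for Tubb5. After matching they were -0.40 for Cd27, -0.05 for Ldha, -0.50 for Runx3 and 0.41 for Sdha. With arithmetic means they were -0.01 for Cd27, -0.15 for Hmgb2, -0.59 for Ldha and -0.45 for Tnfsf14. Without cells with other-cell RNA they were -0.02 for Pdk1 and -0.15 for Tyr, and without cycling cells 0.36 for Cd8a and 0.06 for Hprt. Tyr also turned after adjusting for detected genes (-0.00) and after rescaling (-0.04). The screen including Tyr could not be run, since it left 1 Tcf7-positive and 1 Tcf7-negative cell in the CD8 plate labelled knockout and 0 cells in the wild-type CD8 plate. No paired analysis was possible because no well number occurs in more than 1 plate, beyond the plate itself, which is already the block in the comparison of the classes. Shares within a class rest on 19 to 53 CD8 cells, so shares of rare genes have wide intervals.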

Other observations

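Of the genes that were at least 1 log2 apart in both CD8 and both CD4 plates, which were listed after the values were seen and not tested as a group, several have not been described above. Those higher in Tcf7-positive cells included the ribosomal protein gene Rps20, the cytokine receptor chain gene Il17ra, the oxysterol receptor gene Gpr183 and the signalling genes Arhgef3 and Dgka. Those lower included the glycolytic enzyme genes Pgk1 and Tpi1 (both members of the glycolysis list), the lysosomal genes Lamp2 and Arsb, the integrin gene Itgb2 and the Notch-pathway factor gene Rbpj. Of these, limma called Gpr183 (adjusted p = 0.032) and Arsb (adjusted p = 0.03) in CD8 cells.

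Zfp36l1, an RNA-binding protein that promotes transcript decay, was called higher (adjusted p = 0.04, limma) and was detected in 89.4% of Tcf7-positive and 76.7% of Tcf7-negative cells in the KO plate, and in 89.5% of Tcf7-positive and 30.2% of Tcf7-negative cells in the WT plate. Samd3, whose product holds a sterile alpha motif, was detected in 40.4% of Tcf7-positive and 16.7% of Tcf7-negative cells in the KO plate, and in 68.4% of Tcf7-positive and 9.4% of Tcf7-negative cells in the WT plate (adjusted p = 0.011, limma).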
